A study of Mus musculus with 18 samples.

Results

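The 6 transcription factors Stat3, Creb1, Atf4, Smad1, Smad5 and Jun are known messengers of nerve injury, and their mRNAs were followed in axoplasm, cytoplasm enriched from ground nerve tissue after the pellet was discarded. They were chosen by gene name. Transcripts of 5 of the 6 were listed, among 15552 gene names in all. For Stat3, the only transcript listed in both tissues is annotated as a retained intron, so its values do not measure coding mRNA. Creb1 was not analysed here.

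RNA was measured in axoplasm of C57B6 mice from sciatic nerve, far out along the axon, and from dorsal root, the stretch between ganglion and spinal cord. In each tissue there were 3 groups: RNA that came down with a rabbit antibody to Kif5A, RNA that came down with rabbit IgG as the isotype control, and input axoplasm. Each of these 6 groups held 3 libraries from independent biological repeats, each repeat a pool of 5 animals that gave both tissues. The labels name no genetic change, no nerve injury, and neither the age nor the sex of the mice.

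In sensory neurons, transcription factors can act as messengers between axon and nucleus: a factor activated or translated in the axon is bound by importins and carried by dynein to the cell body. STAT3 is activated by JAK kinases below gp130 cytokine receptors, SMAD1 and SMAD5 by BMP receptors, and JUN by the kinase JNK. ATF4 is translated when eIF2alpha is phosphorylated in the integrated stress response, and CREB1 responds to cyclic AMP and neurotrophins. Kif5A is a heavy chain of a kinesin motor that carries cargo, RNA granules among it, outward along microtubules. The comparisons ask which RNAs travel with that motor, and whether root and nerve differ.

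Named transcripts summed to between 11584418 and 22580824 counts a library. Genes with a count of 0 made up 5.65% to 9.18% of the shared genes in IgG libraries, 0.685% to 2.01% in Kif5A libraries and 0.362% to 1.06% in inputs. Pairs of replicates of 1 group correlated over genes at 0.77 to 0.79 with IgG and at 0.88 to 0.97 otherwise. Markers of sensory neurons (9 of 14 measured) summed to between 102 and 192 CPM (counts scaled to library size) in sciatic nerve and between 820 and 1199 CPM in dorsal root. Those of myelinating Schwann cells (11 of 12 measured) summed to between 5561 and 27060 CPM in sciatic nerve and between 14700 and 30860 CPM in dorsal root. In inputs, adipocyte markers (6 of 8 measured) summed to 3481 to 11360 CPM in sciatic nerve and 66.3 to 117 CPM in dorsal root. Mast cell markers (5 of 6) had 290.5 to 340 CPM and 2.35 to 7.68 CPM in the same order. Skeletal muscle markers (5 of 7) had 732 to 932 CPM and 73.3 to 118 CPM. Oligodendrocyte and astrocyte markers (5 of 8) had 14.6 to 16.9 CPM and 853 to 1313 CPM. Which cells the reads of the factors came from was not tested. The part of cell types in tissue differences was not tested either. In such bulk samples, fewer cells of a type and less RNA per cell cannot be told apart.

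Per kilobase of the listed transcript, Atf4 was the most abundant of the 5 in each of the 6 groups, with means from 181 to 283 CPM per kilobase. Smad1 had means from 19.1 to 32.7 CPM per kilobase, Jun from 10.5 to 29.5 and Smad5 from 10.4 to 18.8. The retained-intron transcript of Stat3 stayed between 0.275 and 1.55, which does not rank its coding mRNA. Listed were 1 of 2 annotated coding transcripts for Atf4 and for Smad1, and 1 of 3 for Smad5. The order is thus one of listed transcripts. In Kif5A precipitates of sciatic nerve, Smad1 (24.1 ± 5.31 CPM per kilobase), Jun (22.2 ± 6.47) and Smad5 (18.8 ± 2.81; SD, n = 3 each) did not differ beyond their spread. In Kif5A precipitates of dorsal root, Smad1 at 19.1 ± 0.143 CPM per kilobase lay above Smad5 at 14.1 ± 1.92 and Jun at 11.2 ± 2.61, and the SDs of Smad5 and Jun met. Inputs of dorsal root kept Smad1 (31.2 ± 3.42), Jun (18.1 ± 1.63) and Smad5 (11.04 ± 0.825 CPM per kilobase) apart.

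None of the 5 factors passed an adjusted p of 0.05 in any of the 9 comparisons (edgeR's quasi-likelihood test, adjusted over all genes tested). For Kif5A against IgG, the libraries of both groups overlapped for all 5 in both tissues. Across all genes tested, the libraries did not overlap for 16% in sciatic nerve and 13.3% in dorsal root, and 0.0478% and 0% of genes passed the adjusted p. The Kif5A over IgG ratios of the 5 did not differ detectably between sciatic nerve and dorsal root, each with an adjusted p of 1 in edgeR's quasi-likelihood test (0.0159% of all genes passed). The Stat3 values rest on few reads, and each interval below shows the size of difference that these libraries could not resolve.

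**Figure D1:**
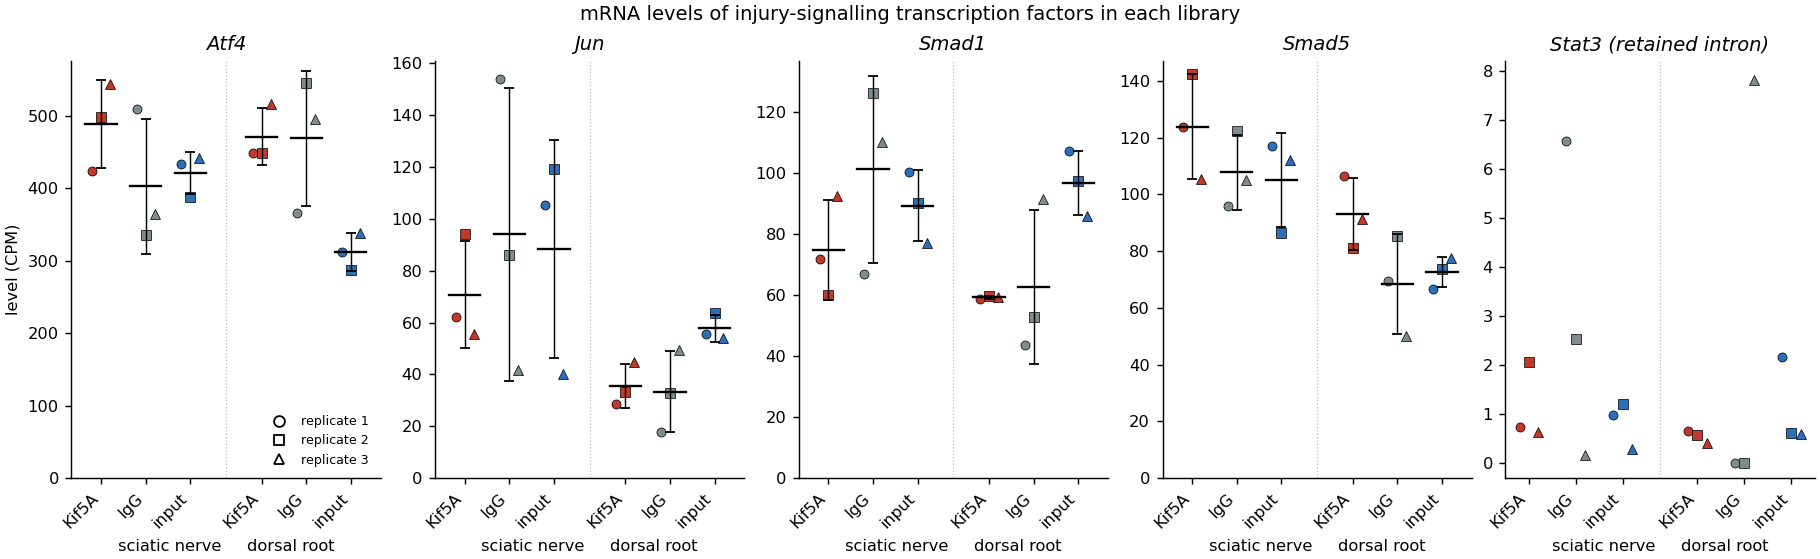
Level of each factor's listed transcript (CPM, linear axes from 0 for Atf4, Jun, Smad1 and Smad5) in the 18 libraries. That of Stat3 is annotated as a retained intron and is not a measure of coding mRNA. Points are libraries (circle, square and triangle for replicates 1, 2 and 3), and lines and bars are the mean ± SD of 3 libraries; Stat3 is shown as points alone because counts of 0 occur. Atf4 lies below the precipitates in the 3 dorsal root inputs, and replicate 3 is the lowest for Jun in every sciatic nerve group.

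**Figure D2:**
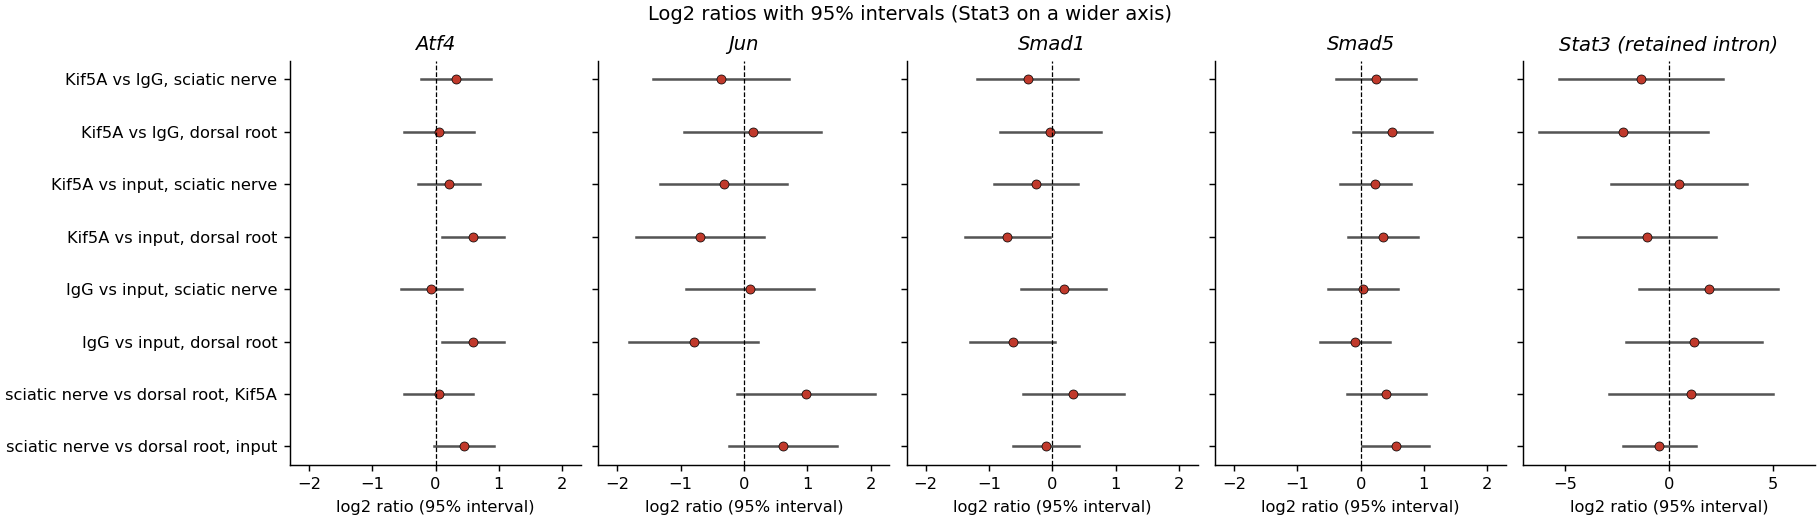
Log2 ratio (x axis) of each factor in 8 comparisons (rows) with its 95% interval from edgeR's quasi-likelihood fit. The first group named is the numerator, and Stat3 stands for its retained-intron transcript. The intervals of Atf4 for Kif5A against input and IgG against input in dorsal root lie above 0, that of Smad1 for Kif5A against input in dorsal root lies below 0, and that of Smad5 for sciatic nerve against dorsal root input lies above 0; none of these passed after adjustment.

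Atf4, on chromosome 15 (80255184 to 80257541, GRCm38, plus strand), encodes the effector of the integrated stress response. Its listed coding transcript of 1725 bases was at 424, 498 and 544 CPM in Kif5A precipitates of sciatic nerve, at 509, 335 and 364 CPM in IgG precipitates and at 434, 388 and 441 CPM in inputs. The 3 groups of sciatic nerve overlap. In dorsal root it was at 448, 448 and 516 CPM with Kif5A, at 366, 545 and 495 CPM with IgG and at 311, 286 and 339 CPM in the inputs. Every precipitate of dorsal root lies above every input there, whichever antibody was used, and Kif5A and IgG overlap.

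Atf4 in dorsal root was thus 0.59 log2 units higher with Kif5A than in input (SE 0.233, 95% interval 0.102 to 1.08, unadjusted p = 0.0206, adjusted p = 0.459 in edgeR's quasi-likelihood test). The ratio of IgG to input was 0.59 as well (SE 0.233, adjusted p = 0.175 in edgeR's quasi-likelihood test); both ratios use the same inputs. Neither held after adjustment. Kif5A against IgG gave 0.32 in sciatic nerve (95% interval -0.226 to 0.875, adjusted p = 0.86) and 0.059 in dorsal root (95% interval -0.491 to 0.608, adjusted p = 1) in edgeR's quasi-likelihood test. Inputs of sciatic nerve were all higher in Atf4 than those of dorsal root, by 0.45 log2 units (unadjusted p = 0.0588, adjusted p = 0.374 in edgeR's quasi-likelihood test).

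The counts of factors without overlap can be read against all genes. For Kif5A against input in dorsal root, 4 of the 5 did not overlap, namely Atf4 and Smad5 higher and Smad1 and Jun lower, where 31.4% of all genes tested did not overlap (15.8% higher and 15.6% lower). For Kif5A against input in sciatic nerve it was 0 of 5, against 17.4% of all genes. For IgG against input it was 0 of 5 in sciatic nerve, against 24.1% of all genes, and 2 of 5 in dorsal root, namely Atf4 higher and Jun lower, against 30.5% (12.3% higher and 18.1% lower). For inputs of sciatic nerve against dorsal root it was 2 of 5, Atf4 and Smad5, both higher, against 21.1% (9.97% higher). For Kif5A precipitates of sciatic nerve against dorsal root it was 2 of 5, Smad1 and Jun, both higher, against 18.9% (9.27% higher). With 5 members, none of these counts is a result about the factors as a group.

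Transcripts kept in the nucleus were also more abundant in most precipitates of dorsal root. The summed level of nuclear RNA markers (4 of 6 measured) was 34250, 27220 and 13530 CPM with Kif5A and 37470, 32590 and 28840 CPM with IgG, against 15300, 7880 and 2701 CPM in the inputs. The lowest Kif5A library lies below the highest input, and the IgG libraries lie above all inputs. Markers of oligodendrocytes and astrocytes (5 of 8 measured) summed to 2440, 2746 and 2465 CPM with Kif5A and 2038, 3190 and 1940 CPM with IgG, against 1069, 852.7 and 1313 CPM in the inputs. All precipitates of dorsal root lie above all inputs in these markers. The part of both marker lists in the Atf4 ratio was not tested.

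The other genes of the integrated stress response were described from a list of 23, of which 21 were tested in precipitates. In Kif5A precipitates against input, all 21 had a log2 ratio above 0 in sciatic nerve, with a median of 0.56, where the median of all genes was 0.02. In dorsal root, 18 of 21 did, with a median of 0.42 against 0.055 for all genes. None of them passed the adjusted p in either tissue, and 0.00789% of all genes did in sciatic nerve and 0% in dorsal root. For IgG precipitates against the same inputs, 14 of 21 were above 0 in sciatic nerve (median 0.30, all genes 0.011), with 1 past the adjusted p, and 16 of 21 in dorsal root (median 0.69, all genes 0.059), with none past it. The other lists described below were less one-sided for Kif5A against input of sciatic nerve. There, 9 of 16 genes around STAT3 and 7 of 20 of BMP and SMAD signalling lay above 0. So did 11 of 25 of JNK and AP-1 and 8 of 15 around CREB1. For the remaining lists it was 6 of 13 of nuclear import, 8 of 15 regeneration factors and 8 of 13 immediate-early genes. In Kif5A precipitates against input of sciatic nerve, adipocyte markers were above 0 for 6 of 6 genes tested (median 1.63) and nuclear RNA markers for 4 of 4 (median 1.09). Nuclear RNA markers summed to 41660, 52460 and 8435 CPM with Kif5A and to 12330, 17560 and 1994 CPM in inputs there. The part of these markers in the list's values was not tested.

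Among these genes, Cebpg, a partner of ATF4, averaged 226 ± 52.1 CPM with Kif5A and 138 ± 28.9 CPM in input of sciatic nerve (SD, n = 3 each; log2 ratio 0.71, adjusted p = 0.748 in edgeR's quasi-likelihood test). Cebpb, another bZIP factor, passed for IgG against input in sciatic nerve, with 149 ± 28.4 CPM in IgG precipitates and 51.6 ± 34.1 CPM in inputs (log2 ratio 1.53, adjusted p = 0.0447 in edgeR's quasi-likelihood test). That call was lost in 5 of 7 fits with libraries left out, with an adjusted p of up to 0.164. Kif5A against IgG split this list, with 13 of 21 above 0 in sciatic nerve and 9 of 21 in dorsal root, and none passed. Asns, the asparagine synthetase gene, had no count with IgG in dorsal root, and the medians stay as given with it at the bound that 3 counts over the group allow.

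**Figure D3:**
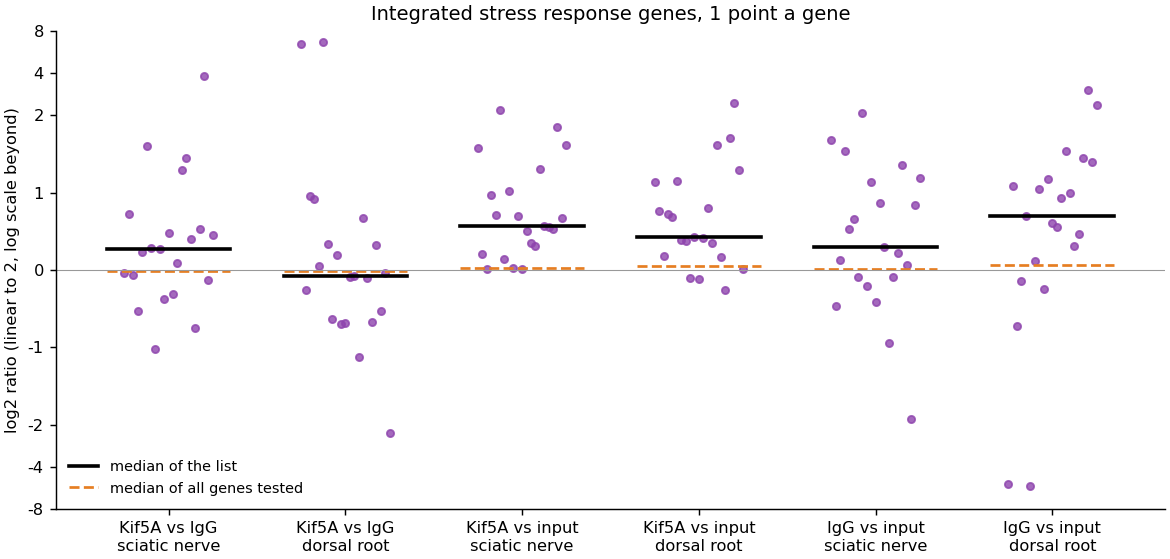
Log2 ratio of the 21 integrated stress response genes (1 point a gene; y axis linear to 2 and on a log scale beyond) in 6 comparisons. Black lines are the medians of the list and dashed lines those of all genes tested; for Kif5A against input the list medians are 0.56 in sciatic nerve and 0.42 in dorsal root, and none of these genes passed the adjusted p there.

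Smad1 and Smad5 transduce the same BMP signal and are near copies in protein but not in transcript. Smad1 lies on chromosome 8 (79338395 to 79399518, minus strand) and Smad5 on chromosome 13 (56703010 to 56742377, plus strand). Their coding regions have 1395 bases each, 76.3% of them identical in alignment, and encode 465 residues each, 89.5% identical. The longest run of identical bases is 17, and no stretch of 50 bases of either listed transcript (3099 bases for Smad1, 6584 bases for Smad5) occurs in a transcript of another gene of GENCODE M21. Aligned stretches of 120 bases that hold this longest run are shown because reads of both genes must be told apart for their values to hold, with the 22 bases that differ in capitals. The first is chr8:79372040-79372159 on the minus strand and the second chr13:56723621-56723740 on the plus strand, both GRCm38 from GENCODE M21 transcripts.
Smad1: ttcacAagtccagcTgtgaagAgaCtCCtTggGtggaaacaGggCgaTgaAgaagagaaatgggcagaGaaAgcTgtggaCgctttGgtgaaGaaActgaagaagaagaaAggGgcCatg
Smad5: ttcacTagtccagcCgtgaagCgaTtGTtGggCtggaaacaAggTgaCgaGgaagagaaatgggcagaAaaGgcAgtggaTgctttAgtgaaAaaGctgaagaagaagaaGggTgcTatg

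Smad1 was at 72.0, 59.9 and 92.5 CPM in Kif5A precipitates of sciatic nerve, at 66.9, 126 and 110 CPM in IgG precipitates and at 100.4, 90.2 and 77.2 CPM in inputs. These groups overlap. In dorsal root it was at 58.8, 59.7 and 59.3 CPM with Kif5A, at 43.6, 52.8 and 91.4 CPM with IgG and at 107, 97.3 and 85.9 CPM in inputs. All 3 Kif5A libraries lie below all inputs, and inside the range of IgG.

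The Smad1 ratio of Kif5A to input in dorsal root was -0.71 log2 units (SE 0.319, 95% interval -1.38 to -0.036, unadjusted p = 0.04, adjusted p = 0.553 in edgeR's quasi-likelihood test). IgG against the same inputs gave -0.63 (95% interval -1.30 to 0.043, adjusted p = 0.289 in edgeR's quasi-likelihood test), with 1 IgG library at 91.4 CPM inside the inputs' range. Kif5A against IgG gave -0.39 in sciatic nerve (95% interval -1.19 to 0.41, adjusted p = 0.91) and -0.028 in dorsal root (95% interval -0.828 to 0.772, adjusted p = 1) in edgeR's quasi-likelihood test. The sign in dorsal root is not fixed: the ratio was 0.049 with library size alone and 0.35 without IgG replicate 3, and 0.044 with the replicate block.

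Smad5 was at 124, 142 and 105 CPM in Kif5A precipitates of sciatic nerve, at 96.0, 122 and 105 CPM in IgG precipitates and at 117, 86.3 and 112 CPM in inputs. These overlap too. In dorsal root it was at 106, 81.3 and 91.4 CPM with Kif5A, at 69.5, 85.3 and 50.2 CPM with IgG and at 66.8, 73.7 and 77.5 CPM in inputs. Kif5A libraries lie above all inputs there, and 1 IgG library lies between the Kif5A values.

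Kif5A against IgG in dorsal root gave Smad5 the smallest p of the 5 factors in that comparison, with a log2 ratio of 0.50 (SE 0.29, 95% interval -0.127 to 1.13, unadjusted p = 0.108, adjusted p = 0.984 in edgeR's quasi-likelihood test). The same ratio in sciatic nerve was 0.24 (95% interval -0.383 to 0.869, adjusted p = 0.945), and Kif5A against input in dorsal root gave 0.36 (95% interval -0.20 to 0.911, adjusted p = 0.784), both in edgeR's quasi-likelihood test. In input, Smad5 was higher in sciatic nerve than in dorsal root by 0.55 log2 units (95% interval 0.023 to 1.08, unadjusted p = 0.0425, adjusted p = 0.318 in edgeR's quasi-likelihood test).

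Within a library, the ratio of Smad5 to Smad1 counts does not depend on library scaling, but it is not corrected for the length of the transcripts, and Smad5 has the longer one. It was chosen after the values were seen and is given without a test. In sciatic nerve it was 1.72, 2.38 and 1.14 with Kif5A, 1.43, 0.967 and 0.954 with IgG and 1.17, 0.957 and 1.45 in inputs. In dorsal root it was 1.81, 1.36 and 1.54 with Kif5A, 1.59, 1.61 and 0.549 with IgG and 0.624, 0.758 and 0.902 in inputs. Reads of Smad5 were thus fewer than those of Smad1 in the 3 inputs of dorsal root and more in the 6 Kif5A libraries, while IgG libraries fell on both sides of 1. Per kilobase, the mean of Smad1 was above that of Smad5 in both Kif5A groups, as given above.

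**Figure D4:**
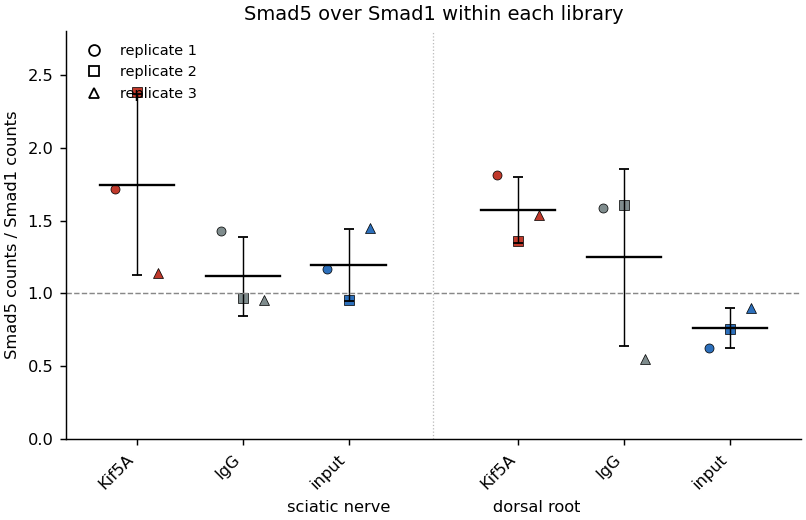
Ratio of Smad5 to Smad1 counts (y axis from 0) in each of the 18 libraries, with mean ± SD of 3 libraries; the dashed line marks equal counts, with no correction for transcript length. The 3 Kif5A libraries of dorsal root lie between 1.36 and 1.81, and the 3 inputs there between 0.624 and 0.902.

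Of 23 other genes of BMP and SMAD signalling, 20 were tested in precipitates. For Kif5A against IgG, 8 of 20 had a log2 ratio above 0 in sciatic nerve (median -0.14, all genes -0.015) and 12 of 20 in dorsal root (median 0.069, all genes -0.0094), and none passed. In sciatic nerve, Smad9, which encodes another BMP-activated SMAD, averaged 12.02 ± 1.41 CPM in Kif5A precipitates and 1.38 ± 1.12 CPM in IgG precipitates (log2 ratio 3.18, unadjusted p = 0.037, adjusted p = 0.53 in edgeR's quasi-likelihood test). Bmp6, a BMP ligand, was lower in input of sciatic nerve, with 12.8 ± 2.05 CPM, than in input of dorsal root, with 55.2 ± 16.2 CPM (log2 ratio -2.10, SE 0.317, adjusted p = 0.00568 in edgeR's quasi-likelihood test, where 4.12% of genes passed). That call held in all 13 alternatives tried.

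Id1, a target gene of the SMADs that encodes an inhibitor of bHLH factors, was higher with IgG than in input of sciatic nerve. It had 10.97 ± 8.39 CPM in the IgG precipitates and 0.377 ± 0.225 CPM in the inputs (log2 ratio 4.83, adjusted p = 0.0272 in edgeR's quasi-likelihood test, where 3.74% of genes passed). The call was lost in 4 of 7 fits with libraries left out, with an adjusted p of up to 0.0978. The Kif5A precipitates had 3.72 ± 0.956 CPM (adjusted p = 0.579 against input in edgeR's quasi-likelihood test).

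Jun, on chromosome 4 (95049034 to 95052222, minus strand), encodes the AP-1 factor that is induced in sensory neurons after axotomy and in Schwann cells of injured nerve. Its transcript of 3189 bases was at 62.2, 94.1 and 55.5 CPM in Kif5A precipitates of sciatic nerve, at 154, 86.1 and 41.8 CPM in IgG precipitates and at 105, 119 and 40.3 CPM in inputs. Replicate 3 is the lowest of each group, and the groups overlap. In dorsal root it was at 28.8, 33.1 and 44.9 CPM with Kif5A, at 17.8, 32.9 and 49.3 CPM with IgG and at 55.7, 63.6 and 53.9 CPM in inputs. All precipitates of dorsal root lie below all inputs there.

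Jun in dorsal root gave a log2 ratio of -0.70 for Kif5A against input (SE 0.481, adjusted p = 0.754) and of -0.79 for IgG against the same inputs (SE 0.482, adjusted p = 0.381), both in edgeR's quasi-likelihood test. Kif5A precipitates of sciatic nerve were all higher in Jun than those of dorsal root, by 0.98 log2 units (SE 0.502, 95% interval -0.109 to 2.07, unadjusted p = 0.0737, adjusted p = 0.958 in edgeR's quasi-likelihood test, where 0.988% of genes passed). Inputs gave 0.62 (SE 0.374, 95% interval -0.229 to 1.47, adjusted p = 0.541 in edgeR's quasi-likelihood test), with overlap. Kif5A against IgG gave -0.36 in sciatic nerve (95% interval -1.44 to 0.719) and 0.14 in dorsal root (95% interval -0.939 to 1.22), with adjusted p of 0.96 and 1 in edgeR's quasi-likelihood test.

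The input difference of Jun between the tissues turned on 1 library. Without input replicate 3 of sciatic nerve it was 0.96, with an adjusted p of 0.00217 in edgeR's quasi-likelihood test; 2538 genes passed there, against 503 with all 6 inputs. Replicate 3 also stood apart in cell type markers. Its adipocyte markers (6 of 8 measured) summed to 4835 CPM with Kif5A (56590 and 35960 CPM in replicates 1 and 2), to 25000 CPM with IgG (74740 and 53400 CPM) and to 3481 CPM in input (9801 and 11360 CPM). Its Schwann cell markers summed to 27060 CPM with Kif5A (5561 and 10740 CPM), to 25150 CPM with IgG (5960 and 8903 CPM) and to 26820 CPM in input (18930 and 22030 CPM). The part of these markers in the Jun values was not tested.

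A transcript on the other strand touches Jun. Of 3140 stretches of 50 bases of the Jun transcript, 183 (5.83%) also occur in Junos, the antisense neighbour, and none in another gene. Junos had 21, 132 and 77 counts with Kif5A, 0, 120 and 179 with IgG and 9, 0 and 20 in inputs of sciatic nerve. Jun itself had 709 to 3165 counts there. No source used here says whether counting used the strand, so reads of both cannot be told apart where they overlap.

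Of 26 genes of the JNK cascade and AP-1, 24 were tested among precipitates. For Kif5A against IgG, 17 had a log2 ratio above 0 in sciatic nerve (median 0.29, all genes -0.015) and 15 in dorsal root (median 0.22, all genes -0.0094), with none past the adjusted p. Fos, the partner of JUN in AP-1, averaged 36.3 ± 3.64 CPM with Kif5A, 8.24 ± 0.395 CPM with IgG and 31.3 ± 12.6 CPM in input of sciatic nerve. IgG against input passed for it (log2 ratio -1.92, adjusted p = 0.0393 in edgeR's quasi-likelihood test), while Kif5A against IgG did not (log2 ratio 2.18, adjusted p = 0.204 in edgeR's quasi-likelihood test). The call was lost in 4 of 7 fits with libraries left out, with an adjusted p of up to 0.145.

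Mapk8ip1, the JNK scaffold JIP1, had 7.63 ± 1.66 CPM with Kif5A, 1.46 ± 0.855 CPM with IgG and 12.2 ± 1.10 CPM in input of sciatic nerve. It was lower with IgG than in input (log2 ratio -3.06, adjusted p = 0.039 in edgeR's quasi-likelihood test), a call lost in 6 of 7 fits with libraries left out. Map3k13, a kinase above JNK, had no count in the 3 IgG libraries of sciatic nerve and was at least 53.6-fold higher with Kif5A and at least 95.3-fold higher in input, taking 3 counts over the IgG group as the floor. Atf2, an AP-1 partner, had no count in either IgG group and was at least 21-fold higher with Kif5A and at least 97.6-fold higher in input of sciatic nerve. For dorsal root the same floor gave Atf2 at least 11.3-fold with Kif5A and at least 34-fold in input. These bounds cover counting error only. For Atf2, the lowest Kif5A library of sciatic nerve was at 0 CPM as well. Kif5A against IgG passed for neither gene in sciatic nerve (adjusted p = 0.224 for Map3k13 in edgeR's quasi-likelihood test). IgG against input passed for both (adjusted p = 0.0291 for Map3k13 and 0.0316 for Atf2 in edgeR's quasi-likelihood test). With libraries left out, the call was lost in 6 of 7 fits for Map3k13 and 4 of 7 for Atf2. The adjusted p reached 0.0763 and 0.0784 in those fits of the same test.

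Fosl2, another AP-1 member, was higher in Kif5A precipitates of sciatic nerve, at 84.1 ± 3.99 CPM, than in those of dorsal root, at 25.9 ± 3.11 CPM (log2 ratio 1.69, SE 0.346, adjusted p = 0.0373 in edgeR's quasi-likelihood test). The ratio stayed between 1.64 and 1.8 when libraries were left out, but the call was lost in 7 of 7 such fits, with an adjusted p of up to 0.227. In inputs the ratio was 1.15 (adjusted p = 0.0579 in edgeR's quasi-likelihood test).

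Stat3, on chromosome 11 (100885098 to 100939540, minus strand), encodes the factor that carries gp130 cytokine signals. Of its 14 annotated transcripts, 4 of them coding, the one listed in both tissues was ENSMUST00000146971, a transcript of 1995 bases annotated as a retained intron. When it was laid on a coding transcript with 24 exons, 1628 of its bases (81.6%) are intronic and 367 (18.4%) fall in 4 exons. Reads on it are therefore not a measure of coding Stat3 mRNA. The 120 bases that run from an exon into the longest retained stretch show this, with exonic bases in capitals (chr11:100896263-100896382, minus strand, GRCm38, GENCODE M21).
Stat3 retained intron: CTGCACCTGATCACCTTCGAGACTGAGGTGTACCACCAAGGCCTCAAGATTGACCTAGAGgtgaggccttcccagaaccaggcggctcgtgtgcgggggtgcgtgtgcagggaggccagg

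The retained-intron transcript had 12, 44 and 11 counts in Kif5A precipitates of sciatic nerve, 135, 52 and 4 counts in IgG precipitates and 16, 14 and 5 counts in inputs. In dorsal root it had 12, 10 and 8 counts with Kif5A, 0, 0 and 136 counts with IgG and 39, 10 and 9 counts in inputs. A single library held all of the IgG counts of dorsal root and 70.7% of those of sciatic nerve, so the groups overlap in both tissues. The log2 ratio of Kif5A to IgG was -1.36 in sciatic nerve (95% interval -5.30 to 2.58, adjusted p = 0.959) and -2.19 in dorsal root (95% interval -6.25 to 1.88, adjusted p = 1) in edgeR's quasi-likelihood test. In dorsal root the sign is that of IgG replicate 3: without it the IgG libraries hold no count. The authors' deposited log2 fold change of this transcript for Kif5A against IgG is 0.177 in dorsal root, with a false discovery rate of 0.994. Its sign there is opposite to that of the -2.19 given here. In sciatic nerve the deposited value is -0.675, with a false discovery rate of 0.91.

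**Figure D5:**
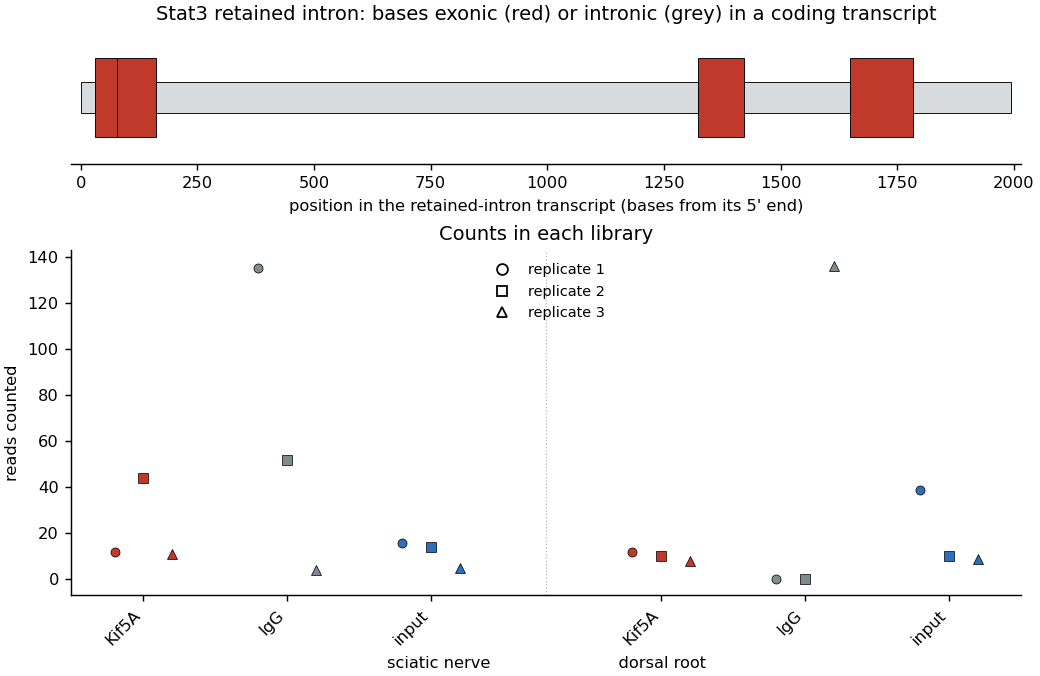
Upper panel, positions along the retained-intron transcript of Stat3 in bases, with exons of a coding transcript in red and its introns in grey; 367 of 1995 bases are exonic. Lower panel, counts on it in each library by group, with 136 of the 136 IgG counts of dorsal root in replicate 3.

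A coding transcript of 4516 bases, ENSMUST00000127638, was listed in dorsal root alone. It had 5, 8 and 6 counts with Kif5A, 0, 2 and 1 with IgG and 2, 0 and 9 in inputs. Over 3 libraries each, that was 19 counts with Kif5A against 3 with IgG, a ratio of 5.23 relative to depth (exact 95% interval 1.54 to 27.6), and against 11 in inputs, a ratio of 1.54 (0.695 to 3.57). The intervals cover counting error only, since PCR copies are not independent molecules. No transcript listed in dorsal root had fewer than 17 counts over its libraries, and the IgG and input counts together fall short of that. The transcript was thus listed only through its Kif5A counts, and its excess over IgG gives no support for enrichment with Kif5A. In the authors' deposited table the log2 fold change of this coding Stat3 transcript for Kif5A against IgG is 2.43, with a false discovery rate of 0.361.

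Of 23 receptors, kinases and regulators around STAT3, 16 were tested. For Kif5A against IgG, 6 had a log2 ratio above 0 in sciatic nerve (median -0.19, all genes -0.015) and 8 in dorsal root (median 0.016, all genes -0.0094), and none passed. Socs3, the feedback inhibitor that STAT3 induces, averaged 31.9 ± 3.82 CPM with Kif5A, 5.91 ± 2.11 CPM with IgG and 13.6 ± 5.94 CPM in input of sciatic nerve. The Kif5A to IgG ratio was 2.49 log2 units (SE 0.61, unadjusted p = 0.00138, adjusted p = 0.196 in edgeR's quasi-likelihood test). In dorsal root Socs3 averaged 30.02 ± 5.02 CPM with Kif5A and 30.3 ± 18.8 CPM with IgG (log2 ratio 0.035, adjusted p = 1 in edgeR's quasi-likelihood test). Stat6, a related STAT, averaged 142 ± 23.8 CPM in Kif5A precipitates of dorsal root and 66.8 ± 21.3 CPM in IgG precipitates there (log2 ratio 1.14, unadjusted p = 0.00398, adjusted p = 0.461 in edgeR's quasi-likelihood test).

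Around CREB1, 15 of 19 family members, coactivators and kinases were tested. With Kif5A set against IgG, 8 had a log2 ratio above 0 in sciatic nerve (median 0.047) and 9 in dorsal root (median 0.29), and none passed. Rps6ka3, a kinase of CREB1, averaged 16.2 ± 4.23 CPM in Kif5A precipitates of dorsal root, against 40.5 ± 7.38 CPM in those with IgG (log2 ratio -1.28, unadjusted p = 0.011, adjusted p = 0.599 in edgeR's quasi-likelihood test), and the ratio in sciatic nerve was -0.31 (adjusted p = 0.96 in edgeR's quasi-likelihood test). Camk4, another such kinase, had 3 counts in the IgG libraries of sciatic nerve against 226 in the inputs, a ratio of 0.00956 relative to depth (exact 95% interval 0.00196 to 0.0283, counting error only). It passed as lower with IgG (adjusted p = 0.0236 in edgeR's quasi-likelihood test). That call was lost in 3 of 7 fits with libraries left out, with an adjusted p of up to 0.0616. With Kif5A, Camk4 averaged 6.08 ± 4.66 CPM in sciatic nerve, against 5.34 ± 2.68 CPM in input.

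The importins, Ran genes and dynein subunits that carry such factors to the nucleus were listed as 16 genes, 13 of them tested. Between Kif5A and IgG, 8 had a log2 ratio above 0 in sciatic nerve (median 0.19) and 6 in dorsal root (median -0.035), and none passed. Nutf2, which brings Ran into the nucleus, averaged 138.5 ± 15.1 CPM in Kif5A precipitates of dorsal root, against 41.7 ± 16.4 CPM in those with IgG (log2 ratio 1.79, adjusted p = 0.393), and in sciatic nerve 74.2 ± 14.8 CPM with Kif5A, against 71.6 ± 40.2 CPM with IgG (log2 ratio 0.10, adjusted p = 0.988), both in edgeR's quasi-likelihood test. Dync1h1, the dynein heavy chain, gave -0.84 in sciatic nerve (adjusted p = 0.523) and -0.81 in dorsal root (adjusted p = 0.809) for Kif5A against IgG in edgeR's quasi-likelihood test. Dynll1, a dynein light chain, was lower with IgG than in input in both tissues. It averaged 225 ± 47.2 CPM with IgG and 694.7 ± 46.7 CPM in input of sciatic nerve (log2 ratio -1.63, adjusted p = 0.0281), and 452 ± 125 CPM with IgG and 1427 ± 503 CPM in input of dorsal root (log2 ratio -1.66, adjusted p = 0.0411), both in edgeR's quasi-likelihood test. Kif5A against the same dorsal root inputs gave -1.74, with an adjusted p of 0.27 in edgeR's quasi-likelihood test. Leaving out libraries lost the IgG call in 4 of 7 fits in sciatic nerve and in 5 of 6 in dorsal root. The adjusted p rose to up to 0.0795 in sciatic nerve and 0.158 in dorsal root in the same test.

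Other factors tied to axon regeneration (15 of 20 tested) had 11 log2 ratios above 0 for Kif5A against IgG in sciatic nerve (median 0.16) and 7 in dorsal root (median -0.019), and none passed. Klf6, a factor that promotes axon growth, averaged 553 ± 70.4 CPM in Kif5A precipitates of sciatic nerve and 382 ± 69.4 CPM in IgG precipitates there (log2 ratio 0.58, unadjusted p = 0.0256, adjusted p = 0.455 in edgeR's quasi-likelihood test). Klf6 in dorsal root averaged 486 ± 17.1 CPM with Kif5A and 511 ± 51.2 CPM with IgG (log2 ratio -0.019, adjusted p = 1 in edgeR's quasi-likelihood test). Of 16 immediate-early genes, known for their rapid and brief induction, 13 were tested, and 8 were above 0 in sciatic nerve (median 0.47) and 5 in dorsal root (median -0.082), with none past the adjusted p. Btg2, a gene of this list, was higher with IgG than in input of dorsal root, at 218 ± 134 CPM and 74.4 ± 2.79 CPM (log2 ratio 1.55, adjusted p = 0.046 in edgeR's quasi-likelihood test, where 1.23% of genes passed). The call was lost in 5 of 6 fits with a library left out, with an adjusted p of up to 0.173.

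Across the 18 libraries, each factor had other genes that it followed more closely than any other factor, chosen among 7081 or more candidates. As a description of log2 CPM over libraries that share tissue, antibody and depth, Jun was most like Syap1 (Pearson r = 0.90), Slc16a9 (0.90) and Mylk (0.89), and Smad1 most like Rad23b (0.84), Tcp1 (0.84) and Spa17 (0.84). Smad5 was most like Prrc1 (0.81), Pxdn (0.80) and Grik5 (0.80), Atf4 most like Vapb (0.72), D10Wsu102e (0.71) and Ubtd2 (0.71), and the Stat3 retained intron most like Fem1a (0.81), Kin (0.81) and Cep192 (0.80). Over the same libraries, the pair with the highest r among the factors was Stat3 and Jun, with 0.70, and 0.74 after taking out the group means. The Stat3 values are retained-intron counts from 0 to 136 a library, and the part of single libraries in this r was not tested. Smad1 and Smad5 gave 0.027, and -0.37 after taking out the group means.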

How the data were processed

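Libraries were of the type SMART-Sq v4 RNA, per the labels' protocols. The authors deposited, for each tissue, whole-number read counts per Ensembl transcript, with their own log2 fold changes, p-values and adjusted p-values. GRCm38 (mm10), edgeR and CASAVA 1.8.2 are named, per the submitters' processing notes. Not given in the sources used here were the aligner, counter and strand setting. Another 42 columns of per-library values were not used.

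Counts of the 16878 named transcripts in both tables were summed to 12697 genes. Library size was the total of the table's named rows, and rows with no name (0.138% to 0.237% of counts) were left out. Groups were compared with edgeR 4.0.16 in R 4.3.3 (robust quasi-likelihood fit, TMM, default filter by group, Benjamini and Hochberg over all genes, threshold 0.05, two-sided). The 12 precipitates were fitted together, all 18 libraries for comparisons with input, and the 6 inputs alone. The code was tested on simulated data. CPM of single genes include TMM factors, while the summed CPM of marker lists are scaled to library size alone. Levels of the 2 tissues come from separately deposited tables of raw counts.

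The 6 members were given; lists, rules and tests were chosen with earlier results of these data known. Named genes are the 6 members, the 3 genes most correlated with each, and list genes past the threshold or, where none passed, some of the 2 with the smallest p in a list, not all of which are named. Asns and Junos fall outside this rule and were chosen after their values were seen. Alternatives were other scalings, no filter, DESeq2 1.42.0, the replicate block, all transcripts, only the groups compared, and each library left out.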

Additional observations from a re-analysis of the deposited data

Results flagged for a closer look

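More counts with Kif5A than with IgG were listed for a transcript that the fits did not use, because it was listed in the dorsal root table alone. The coding transcript of Stat3 had 19 counts in the Kif5A libraries of dorsal root, against 3 in the IgG libraries and 11 in the inputs. All 3 Kif5A libraries (5, 8 and 6 counts) lie above all 3 IgG libraries (0, 2 and 1), as 7.84% of the genes tested did in that comparison. That share is over gene sums kept by the filter on low counts, not over single transcripts with so few counts. The transcript met the smallest total of a listed transcript in dorsal root, 17 counts, only with its Kif5A counts. Its excess over IgG therefore gives no support for enrichment with Kif5A. The ratio to input was 1.54 (0.695 to 3.57, counting error only), and the authors' deposited table gives a false discovery rate of 0.361 for Kif5A against IgG. The groups of 3 libraries were too small for a check of single outlying samples.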

How the results depend on the processing

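Of 634 alternative values for the 5 factors, 605 kept the direction and the side of the threshold and 27 changed sign, where no ratio had passed with all libraries. The other 2 are Jun in input of sciatic nerve against dorsal root, which passed without input replicate 3 of sciatic nerve (0.96), and equally in the alternative without replicate 3 of every sciatic nerve group, chosen after seeing the data. That added alternative also changed the sign for Atf4, to 0.036 for IgG against input in sciatic nerve and to -0.038 for Kif5A of sciatic nerve against dorsal root. DESeq2 called none of the factors.

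With library size alone the sign changed for Smad1 (Kif5A against IgG in dorsal root, 0.049), Smad5 (IgG against input in dorsal root, 0.17) and Atf4 (Kif5A, sciatic nerve against dorsal root, -0.063). The replicate block changed it for Smad1 (0.044 for Kif5A against IgG in dorsal root). Leaving libraries out gave ranges that crossed 0. For Kif5A against IgG in dorsal root they were -2.77 to 6.36 for Stat3, -0.093 to 0.18 for Atf4, -0.23 to 0.35 for Smad1 and -0.16 to 0.54 for Jun. In sciatic nerve Jun gave -0.71 to 0.19. For the difference between tissues they were -7.72 to 2.02 for Stat3 and -0.90 to 0.047 for Jun. Stat3 gave -0.23 to 0.87 for Kif5A against input in sciatic nerve. For IgG against input in dorsal root they were -7.31 to 2.09 for Stat3 and -0.28 to 0.091 for Smad5. Without IgG replicate 3, which held all counts of its group, that Stat3 ratio was -7.31 (adjusted p = 0.0338 in edgeR's quasi-likelihood test), a fitted value against 0 counts and no bound. For IgG against input in sciatic nerve they were -0.27 to 0.051 for Atf4, -0.011 to 0.41 for Smad1, -0.089 to 0.12 for Smad5 and -0.46 to 0.44 for Jun. Stat3 gave -0.87 to 0.42 for sciatic nerve against dorsal root input, and Atf4 -0.045 to 0.13 for sciatic nerve against dorsal root with Kif5A.

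Counts of genes past the threshold moved between alternatives as well. In the order Kif5A against IgG in sciatic nerve and dorsal root, their difference, Kif5A against input in sciatic nerve and dorsal root, IgG against input in sciatic nerve and dorsal root, and sciatic nerve against dorsal root in inputs and with Kif5A, edgeR's quasi-likelihood test called 6, 0, 2, 1, 0, 474, 156, 503 and 124 genes. DESeq2 called 405, 150, 187, 52, 179, 1412, 1413, 1061 and 350. In the same order, leaving out 1 library at a time gave 0 to 29, 0 to 2, 0 to 24, 0 to 6, 0 to 1, 53 to 849, 5 to 1339, 220 to 2538 and 66 to 131. Without replicate 3 of every sciatic nerve group, the comparisons that use sciatic nerve gave 19, 0 for the difference, 15, 753, 2538 and 157. At an unadjusted p of 0.05, edgeR counted 543 higher and 207 lower genes for Kif5A against IgG in dorsal root, and 416 higher and 648 lower for Kif5A against input there. With only the groups compared in the fit, Kif5A against IgG in sciatic nerve gave 0, Kif5A against input 0 in sciatic nerve and 390 in dorsal root, IgG against input 5 and 0, and Kif5A of sciatic nerve against dorsal root 373. The difference between tissues gave 4 with DESeq2's size factors, 4 with library size alone and 0 with all transcripts; IgG against input in dorsal root gave 302 with library size alone. The causes were not tested.

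Both tissues came from the same animals, but the labels do not say that equal replicate numbers mark the same pool, so the replicate block was kept as an alternative. Of 45 pairs of libraries with the same number in different groups, 14 correlated above 0.1 in their deviations (median 0.058), and 14 of 18 libraries correlated best with their own number. With the replicate block, Kif5A against IgG in sciatic nerve gave 1 gene, the difference between tissues 0 and IgG against input in dorsal root 621; none of the 5 factors passed. With 3 libraries a group, factors at the depth of Stat3 could not be resolved.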
